A study of Mus musculus with 12 samples.

Results

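Direct target genes of p53, the transcription factor encoded by Trp53, were followed in mouse uteri in which Cdh1, Trp53 or both had been ablated. The list held 36 genes, namely Trp53 itself and genes that p53 is known to switch on. It was drawn up from textbook knowledge, but with earlier results of these data known. Of the 36 genes, 33 had a probe that the platform annotation names, and 31 entered the tests, out of 12194 genes tested in all. A gene entered the tests through its brightest probe, provided that 3 or more of the 12 arrays detected it (detection p below 0.05). The probes of Btg2 and Perp did not pass that limit, with detection on 0 of 12 arrays. The members nearest to it among those that passed were Eda2r, detected on 5 arrays, and Aen, detected on 8, whereas the other 29 were detected on all 12. Trp53, Bax and Gdf15 were not analysed here.

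RNA from 12 whole uteri was hybridised to Illumina bead arrays, with 1 array per uterus. All mice were C57BL/6 females of 2 months. The 4 genotypes, each with 3 uteri, were wild type for both genes (CO), knock-out of Cdh1 (Cdh1_cKO), knock-out of Trp53 (P53_cKO) and knock-out of both (Cdh1_P53_cKO). Cdh1 encodes E-cadherin, the adhesion protein that joins epithelial cells. The recombinase, the cells it acts in, the deleted exons and the estrous stage are not stated in the sources at hand, and nothing states how mice were related, so p-values measure the spread between these samples.

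p53 is held at low levels by its own target Mdm2, a ubiquitin ligase that marks it for destruction, and is released from it by DNA damage, oncogene activity and other stress. Once stable, it binds pairs of short consensus half-sites and switches on genes that halt the cell cycle, repair DNA, start apoptosis or adjust metabolism. It acts indirectly as well, because its target Cdkn1a (p21) inhibits cyclin-dependent kinases and thereby lets the DREAM complex silence genes of DNA replication and mitosis. In the uterus, loss of p53 is known from serous endometrial carcinoma.

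The arrays were even in depth, with 20075 to 21670 probes detected on each, which is 44.3% to 47.9% of 45281, and a median of 41 to 43 beads behind each probe. The precision is limited by the number of arrays. The signal of Cdh1 was 9.41 to 10.08 on the log2 scale in CO, 9.58 to 9.98 in the uteri labelled Cdh1_cKO, 9.04 to 9.26 in P53_cKO and 7.36 to 9.67 in Cdh1_P53_cKO. Cdh1 was therefore not lower in the uteri labelled Cdh1_cKO than in CO, and whether its probe lies in a deleted part is not known, so every direction drawn from that group rests on its label. Cdh1_P53_cKO replicate 1, at 9.67, also lay within the CO range. The loss of Trp53 could not be checked, as Trp53 was not analysed here, and rests on the labels as well. Epithelial RNA was present throughout, as Krt8, a keratin of simple epithelium, gave 12.13 to 13.30. The muscle marker Acta2 gave 14.55 to 14.94. Some arrays stood apart on marker genes. Krt14, a keratin of stratified epithelium, read 13.80 on Cdh1_cKO replicate 3 and 4.62 to 8.18 on the others. The oviduct gene Ovgp1 reached 13.20 on Cdh1_P53_cKO replicate 1, above 5.43 to 11.95 elsewhere, and control replicate 3 had proliferation genes at the level of P53_cKO uteri. Counts of members without these 3 arrays are given where they differ.

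The stretches of 250 bases that precede the gene starts of 3 chosen members, Ccng1, Cdkn1a and Mdm2, are shown because each holds a match to the p53 consensus. They are RefSeq sequences of build GRCm38.p6, given in the direction of transcription, with matches in capitals. A gene can have several RefSeq starts, and a window is shown only where it holds a match.
Ccng1, chr11:40755287-40755536 (minus strand): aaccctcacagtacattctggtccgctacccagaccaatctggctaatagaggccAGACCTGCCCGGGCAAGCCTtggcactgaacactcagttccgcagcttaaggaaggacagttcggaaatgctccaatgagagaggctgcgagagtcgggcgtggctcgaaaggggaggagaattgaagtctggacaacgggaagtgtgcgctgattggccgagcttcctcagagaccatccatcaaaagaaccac
Cdkn1a, chr17:29090729-29090978 (plus strand): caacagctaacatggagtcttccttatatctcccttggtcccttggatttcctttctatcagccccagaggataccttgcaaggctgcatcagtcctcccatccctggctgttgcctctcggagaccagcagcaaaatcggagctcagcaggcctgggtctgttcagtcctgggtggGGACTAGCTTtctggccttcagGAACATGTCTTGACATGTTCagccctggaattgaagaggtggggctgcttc
Mdm2, chr10:117710759-117711008 (minus strand): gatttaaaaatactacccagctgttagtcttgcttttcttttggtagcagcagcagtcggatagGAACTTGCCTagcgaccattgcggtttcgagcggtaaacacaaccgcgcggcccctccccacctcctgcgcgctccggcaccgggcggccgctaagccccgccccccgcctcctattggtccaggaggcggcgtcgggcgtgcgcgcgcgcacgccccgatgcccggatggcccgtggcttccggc
The capitals in Ccng1 mark a full p53 element of 20 bases, 2 half-sites without a spacer with 1 base allowed to depart from the consensus, that begins 195 bases before the gene start. In Cdkn1a, the second run of capitals is such an element, and the first is a single half-site of 10 bases. The element begins 51 bases before the start that this window precedes, which need not be the main start of the gene. Mdm2 holds a half-site alone, and its known p53 elements lie in an intron, outside the window. Windows of 250 bases before to 50 after a start were found for 28 of the 36 listed genes, 39 windows in all. Both strands are covered, since the p53 consensus half-site reads the same on each. An exact half-site stood in the windows of 12 of these 28 genes (42.9%), as against 9.55% of 27025 genes in the table. A full element stood in 3 of 28 (10.7%), namely Ccng1, Cdkn1a and Rps27l, as against 0.107% of all genes. The rule of 1 departing base was chosen after the Cdkn1a and Ccng1 sequences had been read. Such matches describe letters only, and several of these genes are counted as p53 targets because of them.

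No tested p53 target passed the test for Trp53 loss, but more of them lay lower than higher in the uteri that had lost it. Limma tests of 2 sides were adjusted over 12194 genes after Benjamini and Hochberg, and an adjusted p below 0.05 counted as a call. The Trp53 effect is the mean of P53_cKO minus CO and of Cdh1_P53_cKO minus Cdh1_cKO, which share no array. It called 0 of 31 members, where 0.164% of all genes were called. Of the 31, 22 had a difference below 0 (71.0%, against 52.7% of all genes), and their median was -0.13 on the log2 scale, against -0.01 over all genes. At an unadjusted p below 0.05 stood 3 members (9.68%), all lower, beside 5.90% of all genes. In both Cdh1 backgrounds at once, 15 of 31 members (48.4%) lay lower after Trp53 loss, where 27.7% of all genes did. Higher in both were 2 members, Sfn and Apaf1 (6.45%, against 24.1% of all genes). A second list of 41 tested p53 targets gave 24.4% lower in both. Leaving out any 1 array put the number of members lower in both between 12 and 18, and leaving out the 3 arrays that stood apart put it at 16, beside 3622 of all genes.

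**Figure D1:**
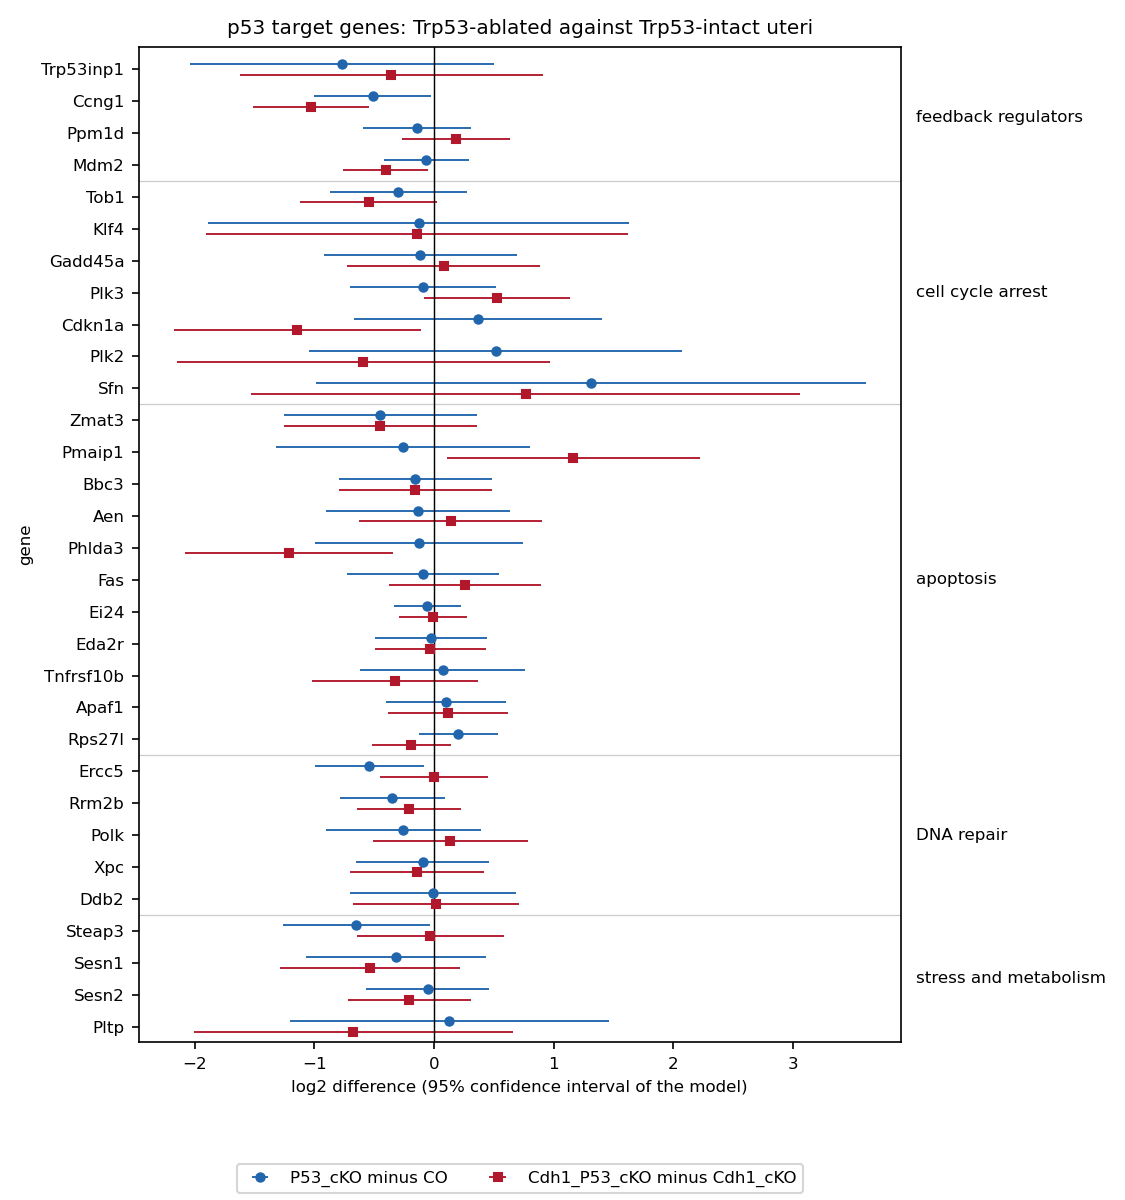
Log2 differences of the 31 tested p53 targets (rows, grouped by role) between Trp53-ablated and Trp53-intact uteri, with 95% confidence intervals of the limma model. Circles are P53_cKO minus CO and squares Cdh1_P53_cKO minus Cdh1_cKO, each of 3 uteri against 3; 15 genes lie left of 0 in both, and the Ccng1 intervals do so entirely.

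Among the regulators that feed back on p53, Ccng1 (cyclin G1, which recruits a phosphatase to Mdm2) was the member with the smallest p for Trp53 loss. Its signal was 10.49, 10.32 and 10.15 in CO, 11.06, 10.50 and 11.07 in Cdh1_cKO, 9.52, 10.17 and 9.74 in P53_cKO, and 10.06, 9.65 and 9.84 in Cdh1_P53_cKO. On this tested probe the 3 Cdh1_cKO uteri were the highest of all 12, and all 3 lay above all 3 of Cdh1_P53_cKO. CO and P53_cKO overlapped in 1 uterus. The Trp53 effect was -0.77 ± 0.16 (SE), a 1.71-fold lower signal, with an adjusted p of 0.132 by limma. Within the Cdh1-targeted uteri the difference was -1.03 ± 0.22 (adjusted p = 0.0956), and within the Cdh1-intact uteri it was -0.51 ± 0.22 (adjusted p = 0.9995). Its other detected probes gave Trp53 effects of -0.60 and -0.53, with -0.92 and -0.85 within the Cdh1-targeted uteri and -0.27 and -0.21 within the Cdh1-intact ones. On both, Cdh1_cKO replicate 2, at 8.15 and 7.09, lay below Cdh1_P53_cKO replicate 1, at 8.35 and 7.43. It also lay below CO replicate 1, at 8.38 and 7.21, so these groups overlapped there. From CO to Cdh1_P53_cKO the tested probe differed by -0.47 and the others by 0.01 and 0.13, so a lower level there was seen on the tested probe alone. Ccng1 lies on chromosome 11, as does Trp53. Whether sequence linked to the targeted Trp53 allele had a part in the Ccng1 signal was not tested.

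Mdm2 itself kept to a narrow range. It read 10.03, 10.36 and 10.22 in CO, 10.42, 10.70 and 10.31 in Cdh1_cKO, 10.19, 9.96 and 10.26 in P53_cKO, and 10.15, 9.99 and 10.08 in Cdh1_P53_cKO. Every Cdh1_cKO uterus lay above every uterus of both Trp53-ablated groups, by 0.40 ± 0.16 in the mean over Cdh1_P53_cKO (adjusted p = 0.519), and the remaining pairs of groups overlapped. Its Trp53 effect was -0.23 ± 0.11 (adjusted p = 0.870). A second probe, detected on all 12 arrays, gave -0.12 for the Trp53 effect and -0.16 for Cdh1_P53_cKO against Cdh1_cKO, where the uteri overlapped on it. Ppm1d (Wip1, a phosphatase that switches the p53 response off) differed by 0.02 ± 0.14 with Trp53 loss. Trp53inp1, a cofactor of p53 in apoptosis and autophagy, differed by -0.56 ± 0.41, with 8.66 to 9.45 in P53_cKO below 9.46 to 9.90 in CO. Its signal spread from 8.60 to 11.18 among the Cdh1_P53_cKO uteri. Another Trp53inp1 probe, detected on all 12 arrays, gave a Trp53 effect of -0.20. On it P53_cKO, at 5.49 to 5.77, lay inside the CO range of 5.06 to 6.36.

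**Figure D2:**
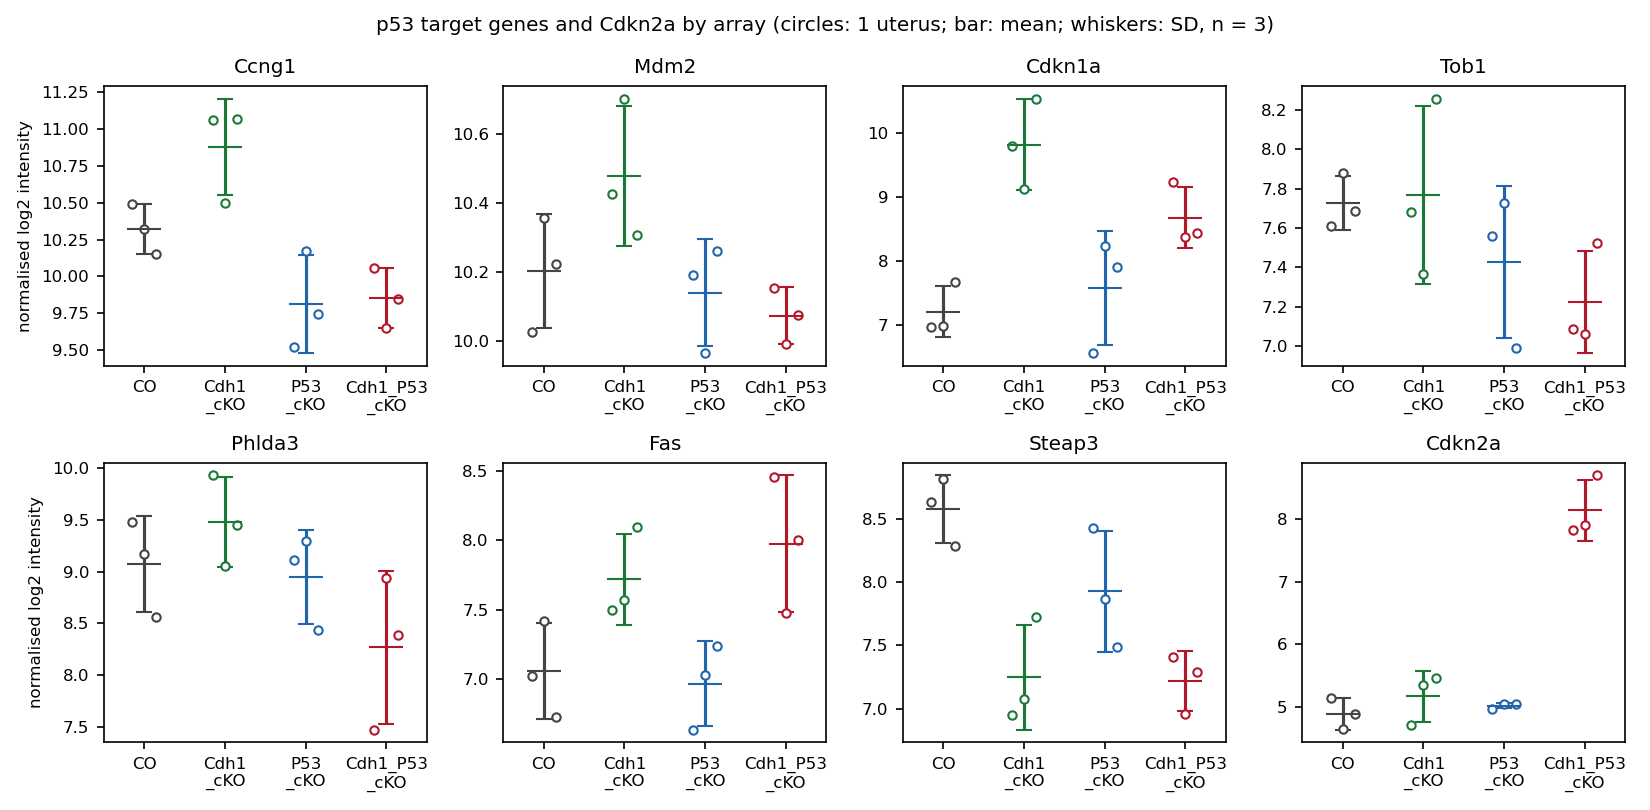
Normalised log2 intensity (vertical axis, not from 0) of 7 p53 targets and Cdkn2a in each uterus by genotype (horizontal axis). Circles are single uteri, bars the mean and whiskers the SD (n = 3). Ccng1, on the probe tested, is highest in Cdh1_cKO and lowest in both Trp53-ablated groups. Cdkn2a stands at 7.83 to 8.70 in Cdh1_P53_cKO alone.

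The cell cycle arrest genes did not follow Trp53 in one direction. Cdkn1a, the inhibitor p21, read 6.97, 6.98 and 7.66 in CO and 9.80, 9.13 and 10.54 in Cdh1_cKO. In P53_cKO it read 6.56, 8.24 and 7.91, and in Cdh1_P53_cKO 9.23, 8.37 and 8.43. All Cdh1-targeted uteri were above all Cdh1-intact ones, with or without Trp53 ablation, and Cdh1_cKO overlapped Cdh1_P53_cKO in its lowest uterus. The level in Cdh1_cKO was 2.62 ± 0.47 above CO (6.14-fold), which ranks first of the members, yet the adjusted p was 0.164. Over 12 refits that each left out 1 array, that adjusted p ran from 0.0637 to 0.769. Cdh1_P53_cKO lay 1.47 ± 0.47 above CO (2.78-fold, adjusted p = 0.129) and 1.14 below Cdh1_cKO (SE 0.47, adjusted p = 0.539). Its other probes put Cdh1_cKO above CO by 2.06 and 2.36.

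In P53_cKO, Cdkn1a was 0.37 ± 0.47 above CO, so that its difference after Trp53 loss took opposite signs in the Cdh1-intact and Cdh1-targeted uteri. The test of that disparity, the interaction, gave -1.51 ± 0.66 with an adjusted p of 0.9998. Plk3, a kinase of the stress response, read 7.48, 6.86 and 6.62 in CO, 7.73, 7.02 and 7.26 in Cdh1_cKO, 6.53, 7.27 and 6.87 in P53_cKO, and 7.62, 7.91 and 8.06 in Cdh1_P53_cKO. Only the last group stood clear of CO and of P53_cKO, by 0.88 ± 0.28 (adjusted p = 0.125) and 0.97 ± 0.28 (adjusted p = 0.141).

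Tob1, an antiproliferative protein, read 7.61, 7.88 and 7.69 in CO, 7.68, 7.37 and 8.26 in Cdh1_cKO, 7.56, 7.73 and 6.99 in P53_cKO, and 7.09, 7.06 and 7.52 in Cdh1_P53_cKO. The Cdh1_P53_cKO uteri lay below all controls, and the remaining groups overlapped. Its Trp53 effect was -0.42 ± 0.18 (adjusted p = 0.817). Gadd45a, a damage-induced inhibitor of Cdk1, was 0.72 ± 0.37 above CO in Cdh1_P53_cKO (adjusted p = 0.351) and had a Trp53 effect of -0.02 ± 0.26. Sfn (14-3-3 sigma, which holds Cdk1 in the cytoplasm and is a product of epithelium) spread most of the members within groups, with 5.06 to 8.52 in CO. In Cdh1_P53_cKO it read 8.81 to 9.07, above every control, a difference of 2.65 ± 1.04 (adjusted p = 0.217). Without control replicate 3, the control that held 8.52, Sfn just passed the test (adjusted p = 0.04999). Plk2 and Klf4, a kinase and a transcription factor, had Trp53 effects of -0.04 ± 0.50 and -0.13 ± 0.56.

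Of the apoptosis genes, Phlda3, an inhibitor of the survival kinase Akt, lay lowest after Trp53 loss. It read 9.48, 9.18 and 8.57 in CO, 9.93, 9.06 and 9.45 in Cdh1_cKO, 9.11, 9.30 and 8.44 in P53_cKO, and 7.47, 8.94 and 8.39 in Cdh1_P53_cKO. The Cdh1_cKO and Cdh1_P53_cKO uteri did not overlap, whereas P53_cKO lay among the controls. The difference was -1.21 ± 0.40 in the Cdh1-targeted uteri (adjusted p = 0.396) and -0.67 ± 0.28 for the Trp53 effect (adjusted p = 0.779). A second probe of Phlda3 gave -0.96 in the Cdh1-targeted uteri but 1.08 in the Cdh1-intact ones. The probes of this gene thus did not agree on the Trp53 effect, at -0.67 and 0.06.

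Zmat3, an RNA-binding protein, read 9.55, 9.19 and 8.79 in CO, 9.65, 8.36 and 9.61 in Cdh1_cKO, 8.71, 9.0 and 8.48 in P53_cKO, and 8.27, 9.23 and 8.76 in Cdh1_P53_cKO. Its mean was 0.45 lower after Trp53 loss in each background, but all groups overlapped (Trp53 effect adjusted p = 0.891). Fas, the death receptor for Fas ligand, read 7.02, 7.42 and 6.72 in CO, 7.49, 7.57 and 8.09 in Cdh1_cKO, 6.63, 7.02 and 7.24 in P53_cKO, and 8.46, 7.47 and 8.0 in Cdh1_P53_cKO. All 6 Cdh1-targeted uteri lay above all 6 others. Cdh1_P53_cKO was 0.92 ± 0.29 above CO (1.90-fold, adjusted p = 0.122) and 1.01 ± 0.29 above P53_cKO (adjusted p = 0.140). With the mean of its detected probes, Fas passed both tests, at 1.04 (adjusted p = 0.0305) and 1.07 (adjusted p = 0.0386).

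Pmaip1 (Noxa, a trigger of mitochondrial cell death) was highest in the Cdh1_P53_cKO uteri on the probe tested. It read 6.01, 6.63 and 6.04 in CO, 5.50, 6.67 and 6.96 in Cdh1_cKO, 6.14, 5.03 and 6.74 in P53_cKO, and 8.14, 7.08 and 7.41 in Cdh1_P53_cKO. These uteri lay above all 9 others, by 1.17 ± 0.48 over Cdh1_cKO (adjusted p = 0.544) and 1.58 ± 0.48 over P53_cKO (adjusted p = 0.171). A second probe, detected on 2 of 3 P53_cKO and 3 of 3 Cdh1_P53_cKO arrays and on none of the others, read 4.65 to 5.23 and 4.93 to 5.38 there, so on it these groups overlapped. Bbc3 (Puma, of the same protein family) differed by -0.16 ± 0.21 with Trp53 loss. The other members of this role, the receptors Tnfrsf10b and Eda2r, the apoptosome protein Apaf1, the nuclease Aen, Ei24 and the ribosomal protein Rps27l, had Trp53 effects between -0.13 and 0.11. Rps27l read 13.21 to 13.72 over all arrays and lay slightly higher in P53_cKO than in CO, by 0.20 ± 0.15 with no overlap. Eda2r and Aen were seen on only some arrays of most groups, so their levels are uncertain.

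Of the DNA repair genes, Ercc5 (XPG, a nuclease of nucleotide excision repair) read 9.36, 9.84 and 9.53 in CO, 8.79, 8.98 and 9.38 in Cdh1_cKO, 9.25, 8.90 and 8.96 in P53_cKO, and 9.19, 9.17 and 8.79 in Cdh1_P53_cKO. Each ablated group had a mean 0.53 or 0.54 below CO, and P53_cKO and Cdh1_P53_cKO did not overlap it (SE 0.21, adjusted p = 0.9995 and 0.212). A second Ercc5 probe, detected on 7 arrays, switched between about background and a bright signal within groups, for example 8.20, 4.50 and 4.57 in CO, and put P53_cKO 3.01 above CO. Rrm2b, the ribonucleotide reductase subunit induced by p53, read 7.99, 8.24 and 7.82 in CO, 7.80, 8.0 and 7.93 in Cdh1_cKO, 7.55, 7.60 and 7.86 in P53_cKO, and 8.11, 7.41 and 7.59 in Cdh1_P53_cKO. Its groups overlapped, and its Trp53 effect was -0.28 ± 0.14 (adjusted p = 0.877). Xpc and Ddb2, which recognise damaged bases, and Polk, a polymerase that bypasses lesions, had Trp53 effects of -0.12 ± 0.18, 0.00 ± 0.22 and -0.06 ± 0.21.

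Steap3, an endosomal iron reductase, was the one member that passed the test in any comparison. It read 8.63, 8.81 and 8.29 in CO, 6.95, 7.08 and 7.72 in Cdh1_cKO, 8.43, 7.86 and 7.48 in P53_cKO, and 7.41, 6.96 and 7.29 in Cdh1_P53_cKO. Both Cdh1-targeted groups lay below all controls, and P53_cKO reached from the control range to that of Cdh1_cKO. In Cdh1_P53_cKO it was 1.36 ± 0.28 below CO, 2.56-fold lower, with an adjusted p of 0.0294. In Cdh1_cKO it was -1.33 ± 0.28 from CO (adjusted p = 0.230), and between these groups it differed by -0.03 ± 0.28. The call was lost with the replicate number as a block (adjusted p = 0.0695) and with the mean of the Steap3 probes (-0.52, adjusted p = 0.136). It was also lost without control replicate 1 or 2, or without any 1 of the Cdh1_P53_cKO uteri, with adjusted p between 0.0594 and 0.136. Its other detected probes, which read 4.64 to 6.02, gave -0.10 each.

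Sesn1, a sestrin that restrains mTORC1 under stress, read 10.76, 11.25 and 10.30 in CO, 10.17, 11.06 and 10.14 in Cdh1_cKO, 10.57, 10.08 and 10.71 in P53_cKO, and 10.47, 9.61 and 9.67 in Cdh1_P53_cKO. The lowest values were in the Cdh1_P53_cKO uteri, whose replicate 1 still lay in the control range. The difference from CO was -0.85 ± 0.34 there (adjusted p = 0.227), and 3 probes of the gene gave Trp53 effects of -0.43, -0.41 and -0.25. Sesn2, of the same family, had a Trp53 effect of -0.13 ± 0.16, and Pltp, a phospholipid transfer protein of plasma lipoproteins, one of -0.27 ± 0.43.

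**Figure D3:**
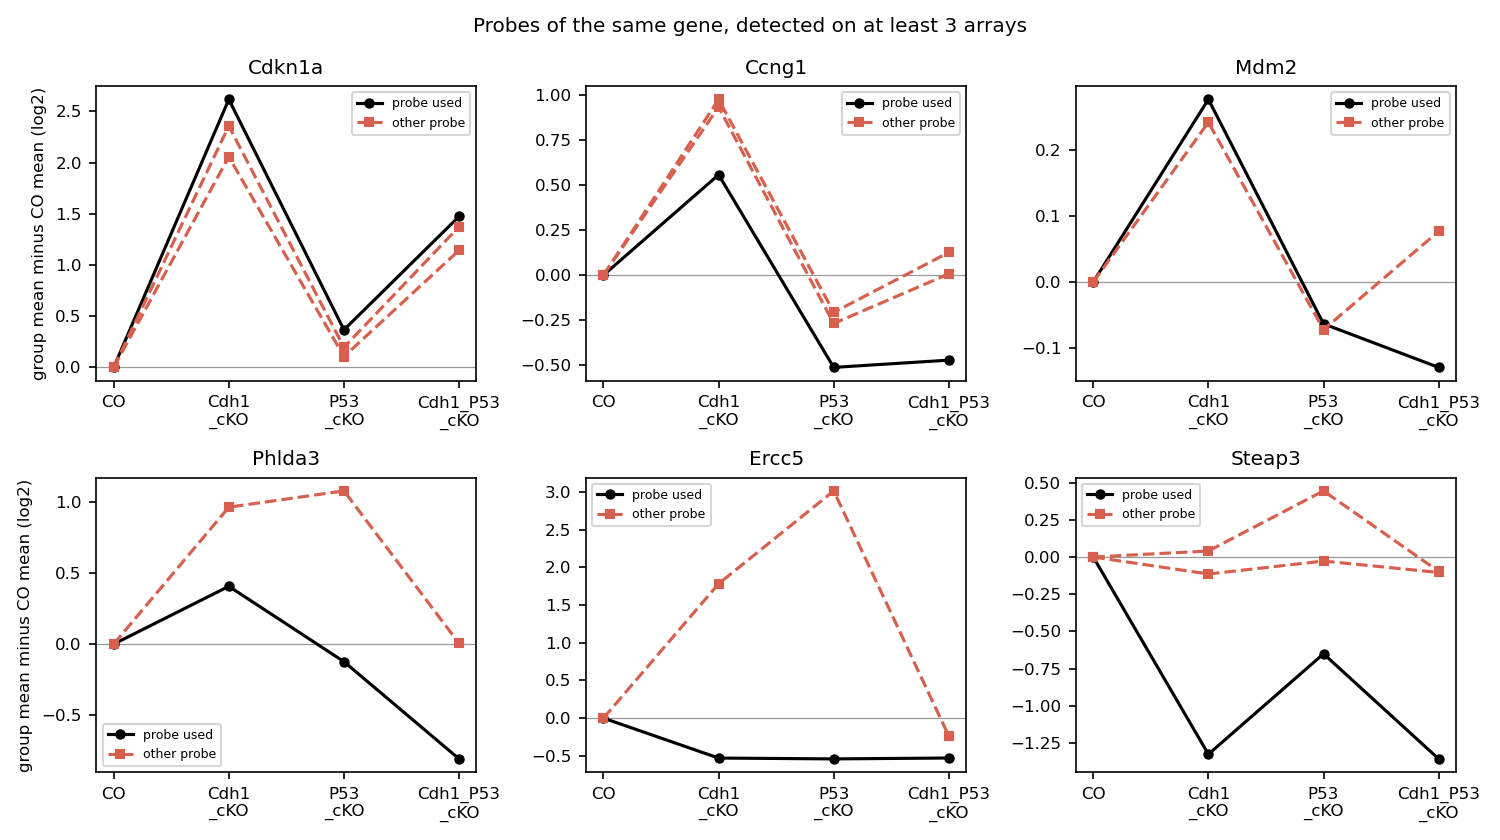
Group mean minus CO mean on the log2 scale (vertical axis) for every probe of 6 p53 targets that was detected on at least 3 arrays, by genotype (horizontal axis). Solid lines are the probe tested and dashed lines other probes of the gene; those of Cdkn1a run alike, whereas those of Ccng1 in Cdh1_P53_cKO (-0.47, 0.01 and 0.13) and those of Phlda3, Ercc5 and Steap3 part.

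Counted by contrast, Trp53 loss called no member in either background. P53_cKO against CO had 0 of 31 called (0.0164% of all genes were), 3 at an unadjusted p below 0.05 (9.68%, beside 2.38% of all genes), all lower, and 3 without overlap (9.68%, beside 9.06%). Those at unadjusted p were Ercc5, Steap3 and Ccng1. Cdh1_P53_cKO against Cdh1_cKO had 0 called (0.492% of all genes), 5 at the unadjusted limit (16.1%, beside 8.16%) and 4 without overlap (12.9%, beside 10.8%). These 4 were Ccng1 and Mdm2 (each on the tested probe alone) and Phlda3, lower, and Pmaip1, higher. The shares without overlap were thus near those of all genes in both. For the Trp53 effect, 0 members and 0.18% of all genes had all 6 ablated uteri on one side of all 6 others.

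Among the contrasts with CO, p53 targets had their highest median difference in Cdh1_cKO. In Cdh1_cKO against CO, 21 of 31 members lay above CO and 10 below it (32.3% below, against 53.6% of all genes). Their median was 0.12, where the median of all genes was -0.03. All 7 cell cycle arrest genes, at 0.04 to 2.62, and 9 of 11 apoptosis genes were above 0, but 4 of 5 DNA repair genes were below it. None was called (0.0082% of all genes were), and 5 reached an unadjusted p below 0.05 (16.1%, beside 8.77%). Those without overlap were 4 (12.9%, beside 11.8%), namely Cdkn1a, Ccng1 (on the tested probe alone) and Fas, higher, and Steap3, lower. Cdh1_P53_cKO against CO called Steap3 alone, where 2.73% of all genes were called. It had 8 members at the unadjusted limit (25.8%, beside 17.1%) and 9 without overlap (29.0%, beside 25.7%). Of those 9, Cdkn1a, Fas, Plk3, Pmaip1 and Sfn were higher and Ccng1 (on the tested probe alone), Tob1, Ercc5 and Steap3 lower. Without the 3 arrays that stood apart, 2 members were called, Steap3 and Sfn. These comparisons share the CO arrays, so their values are set side by side and not correlated.

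**Figure D4:**
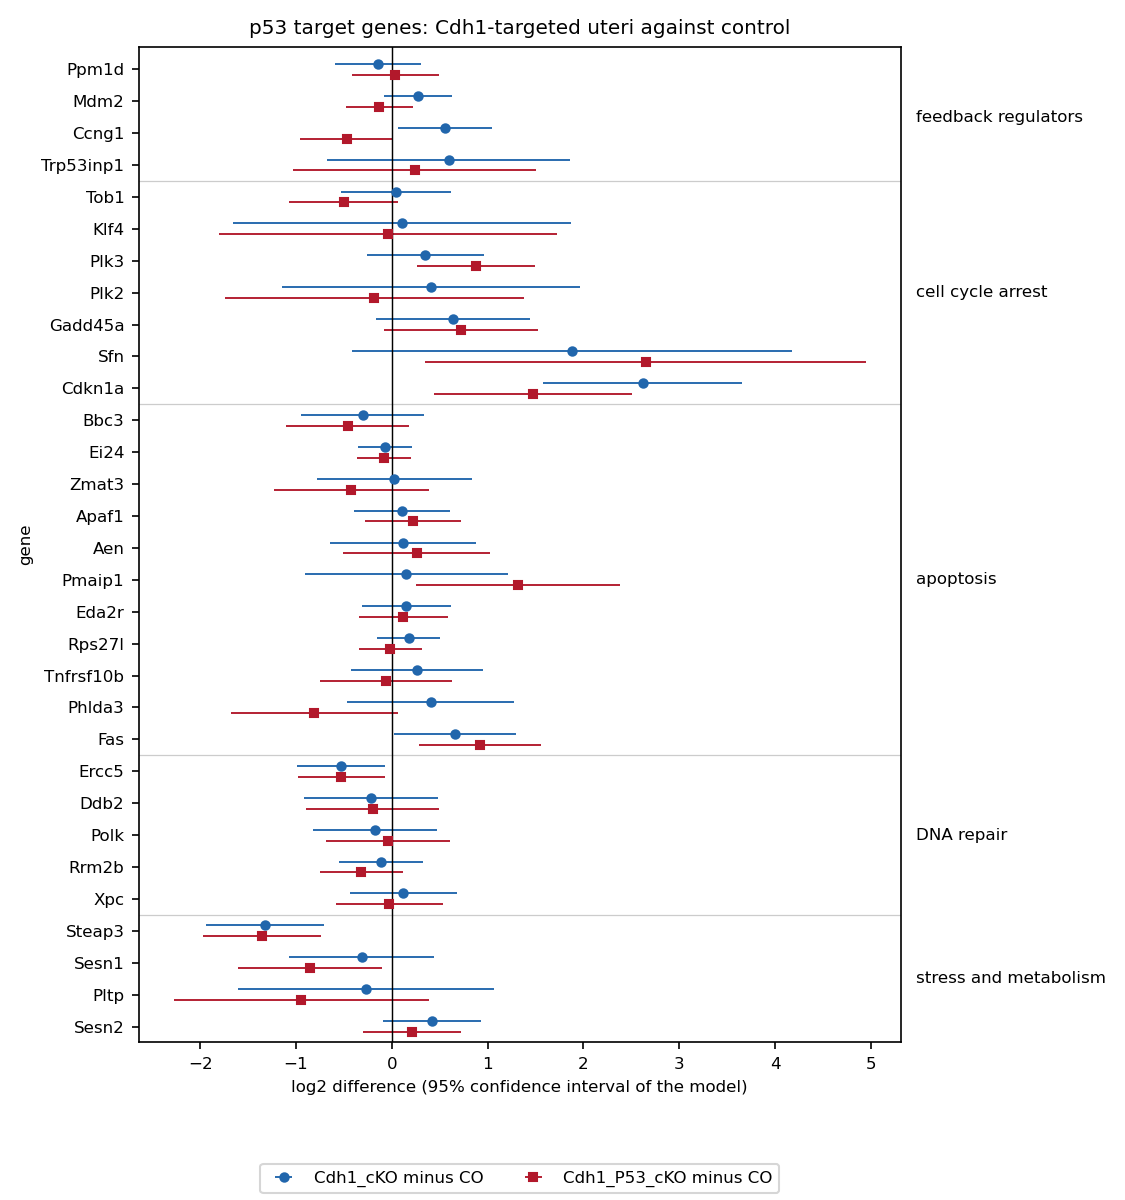
Log2 differences of the 31 tested p53 targets (rows, grouped by role) from CO, with 95% confidence intervals of the limma model. Circles are Cdh1_cKO minus CO and squares Cdh1_P53_cKO minus CO, 3 uteri against 3, with the same CO arrays in both; Cdkn1a lies at 2.62 and 1.47, and Steap3 at -1.33 and -1.36.

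Cdh1_P53_cKO against P53_cKO called 0 members (1.44% of all genes), with 6 at the unadjusted limit (19.4%, beside 13.3%) and 5 without overlap (16.1%, beside 20.8%). The 5 were Cdkn1a, Fas, Plk3 and Pmaip1, higher, and Steap3, lower. The interaction, which tests whether Trp53 loss differed between the Cdh1 backgrounds, called 0 members (0.0984% of all genes), and 1, Cdkn1a, had an unadjusted p below 0.05 (3.23%, beside 4.78%). No member was thus shown to respond to Trp53 loss differently with Cdh1 targeted. The median residual SD within groups was 0.38 over the members and 0.30 over all genes. It ran from 0.08 for Ei24 and 0.16 for Mdm2 to 0.65 for Cdkn1a, 1.13 for Klf4 and 1.48 for Sfn.

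Upstream of p53, 25 of 30 listed regulators were tested, and 1, Cdkn2a, was called. The calls were in the Trp53 effect, the interaction and every contrast of Cdh1_P53_cKO with another group. Of all genes, 0.0984% (interaction) to 2.73% (Cdh1_P53_cKO against CO) were called in these contrasts. Cdkn2a encodes INK4A, an inhibitor of Cdk4 and Cdk6, and ARF, which frees p53 from Mdm2. It read 5.14, 4.64 and 4.89 in CO, 4.71, 5.36 and 5.46 in Cdh1_cKO, 4.97, 5.04 and 5.05 in P53_cKO, and 7.83, 7.90 and 8.70 in Cdh1_P53_cKO. It rose in the Cdh1_P53_cKO uteri, stayed between 4.64 and 5.46 in the other groups, and was detected on 1 of 3 CO, 2 of 3 Cdh1_cKO and all P53_cKO and Cdh1_P53_cKO arrays. With each array of the dimmer group set to no less than its lowest signal among detected probes, Cdh1_P53_cKO was at least 8.96-fold above CO (limma adjusted p = 1.91e-04) and at least 7.5-fold above Cdh1_cKO (adjusted p = 6.9e-04). It was 8.71-fold above P53_cKO (3.12 ± 0.27, adjusted p = 2.98e-04). Since some arrays did not detect it, the values that follow are uncertain in size. P53_cKO minus CO was 0.13 ± 0.27, and the called Trp53 effect, the mean of both backgrounds, was 1.55 ± 0.19 (adjusted p = 0.0121). The interaction was 2.84 ± 0.38 (adjusted p = 0.0406), but with a replicate block its adjusted p was 0.0620, and it passed in only 3 of 12 refits without 1 array. The Trp53 effect missed the test without control replicate 2 (adjusted p = 0.0633) and without P53_cKO replicate 3 (0.0518). Other Cdkn2a probes, detected on 1 and 0 of the 3 CO arrays, put Cdh1_P53_cKO at least 3.82-fold and at least 14.0-fold above CO. Of the remaining regulators, Crebbp, Cop1 and Usp7 had the smallest p for Trp53 loss, with differences of -0.42, 0.20 and -0.13.

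Further p53 targets, 41 tested of 53 listed, gave a median Trp53 effect of -0.01 with 21 below 0 (51.2%, against 52.7% of all genes). None of them was called in any contrast, where 0.0082% to 2.73% of all genes were. Those with the smallest p were Notch1, at 0.38 ± 0.14, the detoxifying hydrolase Ephx1, at -0.63 ± 0.23, Rprm (reprimo, an arrest gene), at -0.69 ± 0.26, and Kank3, at -0.45 ± 0.22 (adjusted p = 0.737, 0.737, 0.737 and 0.870). Genes that p53 is known to silence through p21 and DREAM, 24 tested of 30, leaned the other way. After Trp53 loss 23 of 24 had a difference above 0, with a median of 0.67, but none passed the test (0.164% of all genes did). Only 4.17% of the list lay below 0, against 52.7% of all genes. Ect2, Melk, Cenpa and Bub1b, genes of cytokinesis, mitosis and the spindle checkpoint, had the smallest p, with 0.93 ± 0.27, 1.09 ± 0.33, 0.79 ± 0.32 and 1.06 ± 0.43 (adjusted p = 0.473, 0.536, 0.766 and 0.767). Cdh1_cKO against CO gave a median of -0.62 with 22 of 24 below 0 (91.7%, against 53.6% of all genes). Cdh1_P53_cKO against CO gave -0.05 with 14 of 24 below 0 (58.3%, against 55.4%). In P53_cKO, where Cdkn1a itself lay 0.37 above CO, all 24 lay above the CO mean, whereas 51.1% of all genes lay below it. Their array medians in P53_cKO were 0.54 to 0.77. One control, replicate 3, stood at 0.71, within that range, while the other controls were at or below -0.35, and Cdh1_P53_cKO replicate 1 stood at -1.36. In whole uteri, fewer cells of a type and less RNA per cell cannot be told apart.

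**Figure D5:**
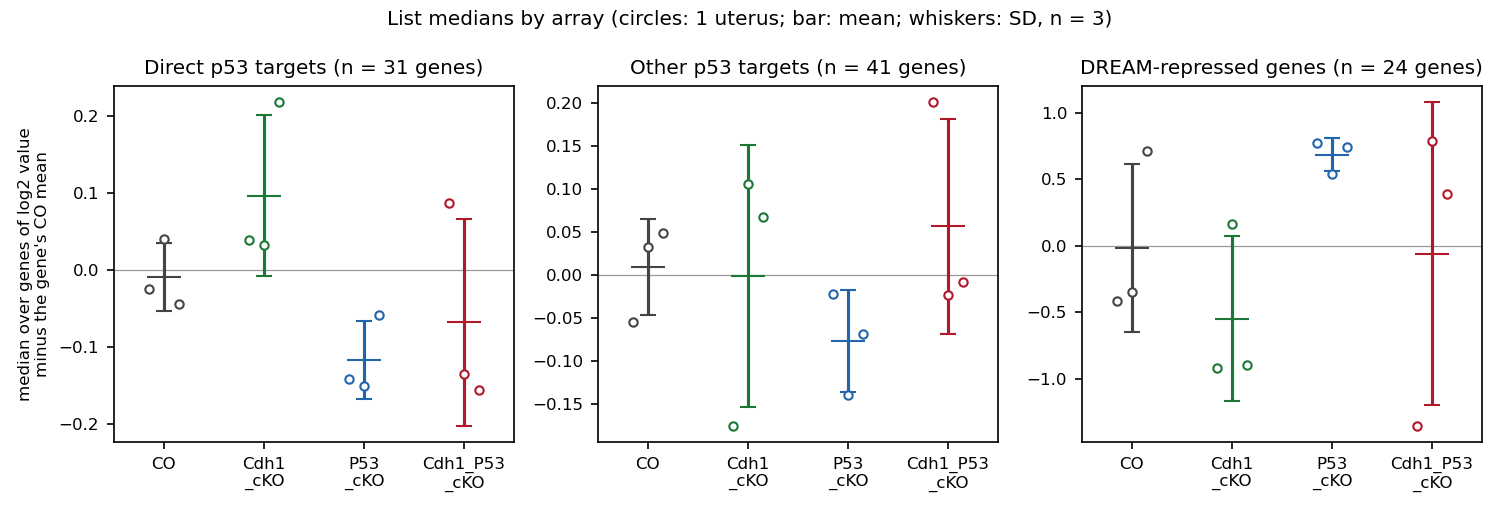
Median over the genes of a list of each gene's log2 signal minus its CO mean (vertical axis, a scale per panel), for each uterus by genotype (horizontal axis). Circles are uteri, bars the mean and whiskers the SD (n = 3); the direct p53 targets lie between -0.15 and -0.06 in P53_cKO and between 0.03 and 0.22 in Cdh1_cKO, and the DREAM-repressed genes of 1 CO uterus lie within the P53_cKO range.

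Markers of several cell types also differed between groups, but not all in step with the p53 targets. The array medians of the 31 members were 0.03 to 0.22 in Cdh1_cKO and -0.16 to 0.09 in Cdh1_P53_cKO. Over 10 tested neutrophil genes of 15 listed, the array medians relative to the CO mean were -0.10 to 0.07 in CO, 0.11 to 0.51 in P53_cKO, 0.47 to 1.10 in Cdh1_cKO and 2.18 to 3.05 in Cdh1_P53_cKO. S100a8, their abundant granulocyte alarmin, read 11.49 to 12.25 in Cdh1_P53_cKO and 5.72 to 6.96 in CO. The 13 tested macrophage genes of 15 gave -0.64 to 0.50 in CO and 1.06 to 1.41 in Cdh1_P53_cKO. Squamous genes, 11 tested of 19, gave -0.14 to 0.12 in CO, 0.15 to 3.58 in Cdh1_cKO and 0.34 to 2.08 in Cdh1_P53_cKO. In the same groups, 16 epithelial genes of 18 gave -0.45 to 0.69, 0.04 to 1.09 and 0.44 to 1.14, with overlap. Immediate early genes, 13 tested of 15, gave -0.23 to 0.22 in CO, 0.24 to 0.91 in Cdh1_cKO and 0.70 to 0.88 in Cdh1_P53_cKO. Endothelial genes, 10 of 10, were lower in Cdh1_P53_cKO, at -0.96 to -0.65, than in CO, at -0.44 to 0.26. Other lists overlapped CO. Stromal genes, 15 of 15, gave -0.40 to 0.18 in CO, where replicate 3 was lowest. They gave -0.55 to -0.31 in Cdh1_cKO and -0.56 to -0.18 in Cdh1_P53_cKO. In each of these Cdh1-targeted groups 13 of 15 had a difference from CO below 0 (86.7%, against 53.6% and 55.4% of all genes). T and NK cell genes, 6 tested of 12, gave -0.43 to 0.29 in CO and -0.41 to 0.29 in Cdh1_cKO. Smooth muscle genes, 10 of 10, gave -0.11 to 0.04 in CO and -0.59 to 0.86 in Cdh1_cKO. The part of other cells in the values of Cdkn1a, Fas, Plk3, Pmaip1, Sfn and Cdkn2a was not tested.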

How the data were processed

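RNA of 12 uteri was measured on 12 arrays. Per the file headers, the authors deposited raw probe intensity, a detection p-value, a bead count and a bead standard error (not used here) for each array, and a matrix of log2 values. The submitters' processing notes name limma 3.10.2, and the background correction behind the matrix is not given in the sources used here. Intensities were background corrected from the detection p-values, quantile normalised and log2-transformed by neqc (offset 16) of limma 3.58.1 in R 4.3.3. These values differed from the matrix by at most 0.0234. Of 45281 probes, 34885 had 1 gene symbol, 18 several and 10378 none. A model with a mean per group was fitted to all 12 arrays (8 residual degrees of freedom), and 7 contrasts were moderated with eBayes. The fit was tested on simulated data.

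The members, lists and tests were chosen with earlier results of these data known. Values of every array are given for Cdkn1a, Mdm2, Ccng1, called members and those with the smallest p, namely 8 for the Trp53 effect, 5 for Cdh1_P53_cKO against CO, and 3 each for Cdh1_cKO against CO and for the interaction. Replicate numbers are shared by the groups. Same-numbered CO and Cdh1_cKO arrays deviated together (r of 0.218 to 0.332), and those of the other group pairs did not. Those of Cdh1_cKO and P53_cKO deviated in opposite directions (r of -0.648 to -0.207). Alternatives were the deposited matrix, an offset of 50, median centring, detection on no or on all arrays, the mean of detected probes, the contrast's groups alone, a replicate block and leaving out each array.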

Additional observations from a re-analysis of the deposited data

Results flagged for a closer look

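Cdkn2a met the test of a difference between effects. Trp53 loss went with a gain of 2.97 on the log2 scale in the Cdh1-targeted uteri and of 0.13 in the Cdh1-intact uteri, and the interaction was 2.84 (limma adjusted p = 0.0406). It lay above 0 in 12 of 12 refits that left out 1 array each, with an adjusted p from 0.0239 to 0.171, and it passed the test in those without Cdh1_cKO replicate 3 and without Cdh1_P53_cKO replicate 1 or 2. The call was lost with no filter on detection (adjusted p = 0.0620), with the mean of detected probes (0.0701) and with the replicate block (0.0620). Only 1 of 3 CO and 2 of 3 Cdh1_cKO arrays detected Cdkn2a on the probe tested, so these sizes are uncertain. The Cdkn2a signal of all 3 Cdh1_P53_cKO uteri was above that of the other 9.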

How the results depend on the processing

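The 58 log2 differences described were each recomputed under the alternatives, in 1175 refits, of which 0 reversed a called value, 22 lost a call, 2 gained one and 62 moved by more than the spread between replicates. Steap3 apart, no member was called with the main settings. In Cdh1_P53_cKO against CO the count of 1 called member became 0 with the replicate block, 0 to 2 when single arrays were left out, and 2 (Steap3 and Sfn) without the 3 arrays that stood apart, an alternative chosen after seeing the data. With the mean of detected probes it stayed 1, but that member was Fas and not Steap3. In Cdh1_P53_cKO against P53_cKO, the mean of detected probes gave 1, again Fas. The block changed no other member's call, and in the other 5 contrasts every alternative left 0 members called. Calls over all genes were fewer with the block, 7 against 20 for the Trp53 effect, 214 against 333 for Cdh1_P53_cKO against CO and 0 against 12 for the interaction. The Trp53 effect took the other sign for 0 to 6 of 31 members under single alternatives. The number of members lower in both backgrounds, also added after seeing the data, was 14 to 17 under other processing. Signals near background limit Eda2r, Aen and Cdkn2a, and the called Cdkn2a difference from Cdh1_cKO missed the test when the fit held those groups alone (adjusted p = 0.0603).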
